A study of Mus musculus with 2 samples.

Results

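The thick ascending limb (TAL) nuclei described here came from the medulla of the mouse kidney, expressed Slc12a1, carried almost no Enox1 or Thsd4 transcript and had no count of 4 genes that mark TAL-β and TAL-γ cells. Of 8121 nuclei in the medulla library, 1637 were in this class (20.2%, exact Clopper-Pearson 95% interval 19.3 to 21.05), out of 13563 nuclei in both libraries. They were chosen by their own counts. A nucleus needed at least 10 counts of Slc12a1 and a sum of at most 2 counts of Enox1 and Thsd4, which are both high in TAL nuclei of the cortex. It could have no count of Tmem207 or Gpc5 (used here for TAL-γ), of Tmem52b or of Nrxn3 (used for TAL-β), at most 1 of Nos1 and Pappa2 (macula densa), at most 2 of Lrp2 and Cubn (proximal tubule), and at most 5000 counts in all. Position within the medulla was not recorded. Since the TAL begins at the border of inner and outer medulla and does not lie in the inner medulla itself, the class is named here by its genes, as Enox1/Thsd4-low nuclei, and not as inner medullary.

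The TAL reabsorbs NaCl without water. NKCC2, the Na-K-2Cl cotransporter encoded by Slc12a1, brings salt in across the luminal membrane, and ROMK (Kcnj1) returns K+ to the lumen. The positive lumen then drives Ca2+ and Mg2+ between the cells, through pores lined by claudins, and the calcium-sensing receptor holds this traffic back. Cells of the medullary limb lie in hypertonic tissue and keep their volume by storing organic osmolytes such as betaine, myo-inositol and sorbitol. Cells within 1 limb differ in their channels and claudins, and the types are called TAL-α, TAL-β and TAL-γ.

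Both libraries came from male B6 mice labelled genotype WT and age 12, with no unit given for the age. The mice carried a Cre under control of Slc12a1 that was induced with tamoxifen, and a Cre-dependent nuclear envelope tag, Sun1 fused to GFP. Nuclei were sorted on GFP, so cells that had not expressed the Cre were largely left out. The cortex portion was a superficial strip and the medulla portion all of the other tissue, deep cortex included, so nuclei of the cortical limb can occur in the medulla library too. There was 1 library per region, each measured by droplet-type single-nucleus RNA sequencing (PIPseq). The medulla library held 20947211 counts with a median of 2430 per nucleus, and the cortex library 16457300 counts in 5442 nuclei with a median of 2427. No cell barcode was shared between them (0). With 1 library per region and nuclei that are not replicates of it, no test was possible. All values are descriptions. Levels are CPM, a gene's counts in all nuclei of a class per 1000000 counts of that class, with exact Poisson 95% intervals, ratios have conditional binomial 95% intervals, and both cover counting error only.

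The Enox1/Thsd4-low nuclei had a median of 2292 counts, 1361 genes and 51 Slc12a1 counts per nucleus. Of 7967 nuclei with enough Slc12a1, the limit on Enox1 and Thsd4 kept 5765, the absence of Tmem207 and Gpc5 kept 1757 of these, and the remaining limits left 1637. In the same library 790 nuclei had 5 or more counts of Enox1 and Thsd4 within the same other limits, with a median of 2661.5 counts. They are called cortex-type α nuclei. Another 2437 nuclei with a median of 2375 counts had at least 3 counts of Tmem207 and Gpc5 within the same other limits, and are called γ-type. On the deposited map of the medulla library the class overlapped in part with both.

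**Figure D1:**
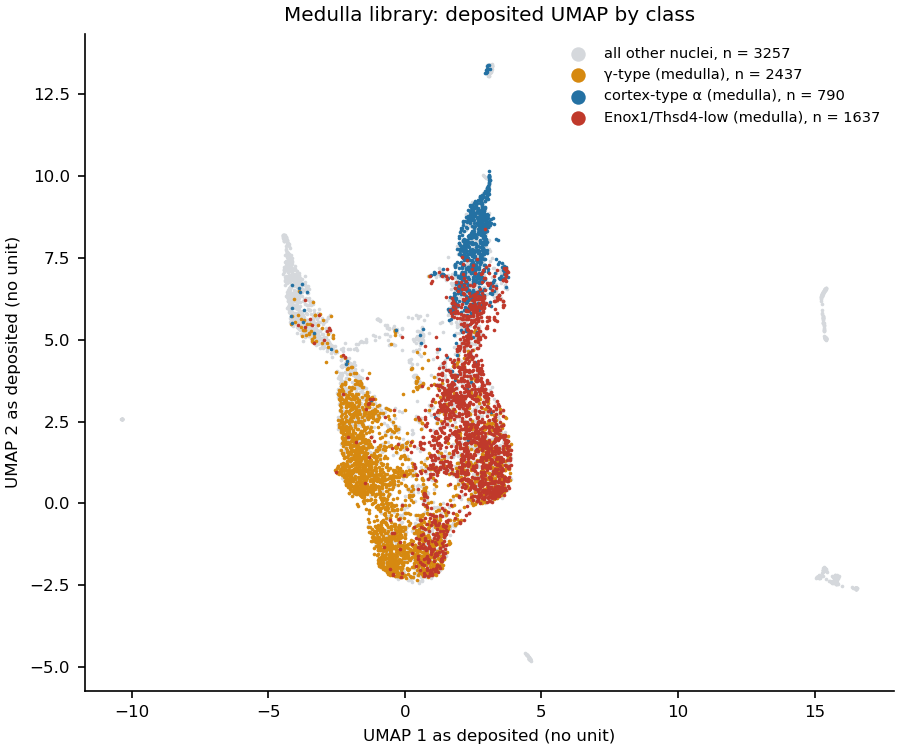
Deposited UMAP coordinates (no unit) of the 8121 nuclei of the medulla library, coloured by class, with all other nuclei in grey. The 1637 Enox1/Thsd4-low nuclei lie between and beside the 2437 γ-type nuclei and reach into the area of the 790 cortex-type α nuclei.

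The osmolyte genes include the marker with the best known place in tonicity control, and their promoters are shown here because genes for osmolyte uptake were among those that differed from cortex-type α nuclei. Slc6a12 encodes the betaine transporter BGT1, Slc5a3 the myo-inositol transporter SMIT1, and both are textbook targets of the tonicity-responsive factor NFAT5. Ranbp3l, a Ran-binding protein that exports Smad proteins from the nucleus, is shown as the marker that differed from the cortex type and was counted in 92.1% of nuclei of the class. The sequences are the 250 bases before the annotated start site, from RefSeq on GRCm38.p6, all on the plus strand, at chr6:121342324-121342573 for the first of 5 start sites of Slc6a12, chr16:92058072-92058321 for Slc5a3 and chr15:8967699-8967948 for Ranbp3l. Capitals mark TGGAAA, the core of the NFAT5 motif, read on either strand (TTTCCA on the other).
Slc6a12: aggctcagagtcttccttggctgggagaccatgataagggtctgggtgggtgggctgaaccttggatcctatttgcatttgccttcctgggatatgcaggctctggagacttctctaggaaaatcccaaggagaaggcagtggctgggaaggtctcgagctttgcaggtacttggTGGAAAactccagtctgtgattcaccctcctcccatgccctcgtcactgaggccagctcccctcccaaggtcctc
Slc5a3: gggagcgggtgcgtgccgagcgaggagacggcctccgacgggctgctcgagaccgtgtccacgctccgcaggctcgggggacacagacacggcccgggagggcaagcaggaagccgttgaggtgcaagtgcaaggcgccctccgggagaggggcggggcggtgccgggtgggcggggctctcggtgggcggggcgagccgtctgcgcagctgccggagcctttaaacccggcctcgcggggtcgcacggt
Ranbp3l: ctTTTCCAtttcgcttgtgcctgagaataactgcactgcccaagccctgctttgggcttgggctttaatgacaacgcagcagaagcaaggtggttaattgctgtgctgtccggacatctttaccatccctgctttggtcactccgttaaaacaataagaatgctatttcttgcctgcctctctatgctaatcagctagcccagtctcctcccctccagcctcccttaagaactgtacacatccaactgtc
The Slc6a12 window held 1 match, 69 bases before the start site, and the windows of its other 4 start sites held 0. Ranbp3l held 1 match near the far end of its window, on the reverse strand, and Slc5a3 held 0. Such short motifs are common. They occurred in 18.6% of 32851 start sites in the table and in 14.9% of 9416 start sites of the genes compared with cortex-type α nuclei. Among genes at least 2-fold higher in Enox1/Thsd4-low nuclei the share was 19.0% of 179 start sites (136 of 197 genes matched the table), among those at least 2-fold lower it was 19.6% of 363 (256 of 329 genes), and in the list of osmolyte genes it was 21.7% of 23 (12 of 18 genes).

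Of 7 genes proposed as markers of the class, 5 were much higher than in cortex-type α nuclei, and all 5 were also higher in γ-type than in cortex-type α nuclei. For 4 of them the ratio of the class to the γ type was between 0.917 and 1.21, and for Slc6a12 it was 1.58 (0.928 to 2.69). All 7 were chosen with earlier results of these data known, and every gene was measured in the contrast that defined the classes, so their levels describe the class and support nothing further.

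Ranbp3l (ENSMUSG00000048424, chromosome 15 from 8997242 to 9068799, GRCm39) stood at 4158 CPM (95% interval 4093 to 4224) in Enox1/Thsd4-low nuclei, at 401 CPM (374 to 429) in cortex-type α nuclei and at 3899 CPM in γ-type nuclei. The ratio to the cortex type was 10.4 (9.68 to 11.1) and to the γ type 1.07 (1.04 to 1.09). Per nucleus, the median was 8 counts with quartiles of 3 and 14 and a highest value of 45, and 130 nuclei (7.94%) had no count. In cortex-type α nuclei 60.9% had no count and the median was 0. A further measure of its spread is that 367 nuclei of the class (22.4%) had at most 2 counts, against 87.1% of cortex-type α nuclei. It was also counted outside TAL nuclei. Barcodes of the medulla library outside the called nuclei held 2943 CPM of it, and 49.4% of 77 proximal tubule nuclei (median 4885 counts) had a count. After each nucleus was thinned to 1000 counts, the share with Ranbp3l was 84.2% in Enox1/Thsd4-low nuclei (92.1% before thinning), 22.5% in cortex-type α nuclei (39.1%) and 14.3% in the proximal tubule nuclei.

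Scel (ENSMUSG00000022123, chromosome 14 from 103750515 to 103851219) encodes sciellin, a protein of the cornified envelope of epithelia. It reached 203 CPM (189 to 219) against 16.7 CPM (11.6 to 23.2) in the cortex type, a ratio of 12.2 (8.67 to 17.6), and 222 CPM in the γ type. A Scel count was present in 28.4% of Enox1/Thsd4-low nuclei (17.0% after thinning), 2.53% of cortex-type α nuclei and 0 of 77 proximal tubule nuclei. Lama1 (ENSMUSG00000032796, chromosome 17 from 68004223 to 68129642), the α1 chain of laminin in basement membranes, was at 99.2 CPM (89.3 to 110) against 3.82 CPM, from 8 counts, in the cortex type. That is a ratio of 26.0 (13.04 to 60.6), and the γ type stood at 98.6 CPM. The share of nuclei with a Lama1 count, 14.4%, was no higher than the 15.6% of the deeper proximal tubule nuclei, whereas at 1000 counts it was 8.30% against 3.90%. In 48 proximal tubule nuclei of the cortex library it was 33.3%, and 12.5% at 1000 counts, so the share with a count does not set the class above those nuclei.

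The other pair of high markers were rare transcripts. Slc6a12 (ENSMUSG00000030109, chromosome 6 from 121320035 to 121342734) had 31 counts in 1637 nuclei, 8.35 CPM (5.68 to 11.9), and 2 counts in cortex-type α nuclei, a ratio of 8.75 (2.23 to 75.4). It was at 5.29 CPM in the γ type, and the ratio of 1.58 (0.928 to 2.69) was within counting error. Htr1b (ENSMUSG00000049511, chromosome 9 from 81510344 to 81515902), a Gi-coupled serotonin receptor, had 49 counts, 13.2 CPM (9.77 to 17.5), and 1 count in the cortex type, a ratio of 27.7 (4.74 to 1114). Of Enox1/Thsd4-low nuclei, 1.71% had a Slc6a12 count and 2.69% an Htr1b count, so at this depth neither identifies a nucleus. Slc6a12 was also counted in 1 of 77 proximal tubule nuclei (1.30%, 0.03 to 7.02), a share that overlaps that of the class, and Htr1b in 0 of 77, which allows a share of up to 4.68%.

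Ptger3 and Cldn10 behaved differently. Ptger3 (ENSMUSG00000040016, chromosome 3 from 157272492 to 157352099), the EP3 receptor through which prostaglandin E2 lowers cAMP, was at 2228 CPM against 1882 CPM in the cortex type, a ratio of 1.18 (1.14 to 1.23), and against 1580 CPM in the γ type, a ratio of 1.41 (1.37 to 1.45). Cldn10 (ENSMUSG00000022132, chromosome 14 from 119025320 to 119112901), which forms the sodium-selective paracellular pore, was at 259 CPM against 221 and 215 CPM. Both were low in 515 nuclei with at least 3 counts of Tmem52b and Nrxn3 (β-type), with ratios of 6.13 (5.61 to 6.71) for Ptger3 and 7.52 (5.65 to 10.2) for Cldn10. Proximal tubule nuclei held Cldn10 at 433 CPM and Ptger3 at 10.4 CPM. Counts per gene do not separate the isoforms of Cldn10.

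**Figure D2:**
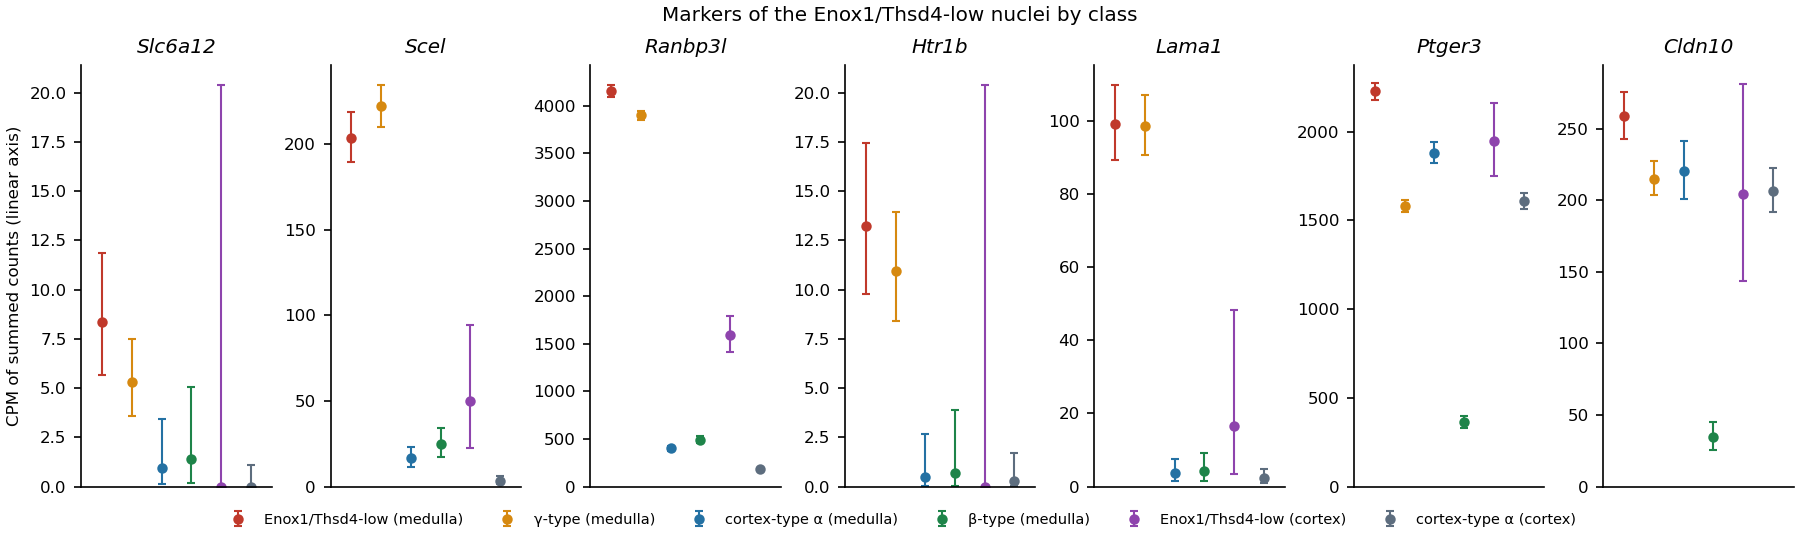
CPM of summed counts of the 7 markers in 6 classes of nuclei (linear axes), with exact Poisson 95% intervals. Slc6a12, Scel, Ranbp3l, Htr1b and Lama1 are higher in the Enox1/Thsd4-low and γ-type nuclei of the medulla than in its cortex-type α nuclei. Ptger3 and Cldn10 are low only in the β-type class among the 6.

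Over the 9166 genes with at least 50 counts in the 2 classes together, leaving out the genes of the rule, 197 were at least 2-fold higher (2.15%) and 329 at least 2-fold lower (3.59%) in Enox1/Thsd4-low than in cortex-type α nuclei. The median log2 ratio over all of them was 0.01. These shares come from the contrast that the rule itself made and are given as background to the genes named next. The genes of the rule differed by construction: Enox1 was at 76.3 against 2115 CPM and Thsd4 at 83.8 against 2542 CPM.

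Among genes with at least 100 counts over both classes, Lama1 was followed by Rgs7, which speeds GTP hydrolysis by G proteins (64.9 against 3.82 CPM, 17.0-fold, 8.49 to 39.8), and Pik3c2g, a class II phosphoinositide 3-kinase (177 against 10.5 CPM, 16.8-fold, 11.02 to 27.0). Ankrd33b was at 52.3 against 3.34 CPM. Sgcz, a sarcoglycan, was 6.87-fold higher (6.43 to 7.35) at 3125 CPM, and Ano4, of the anoctamin family of calcium-activated membrane proteins, 7.60-fold higher (6.21 to 9.38). The MAP kinase phosphatase gene Dusp1 was 6.43-fold higher (3.97 to 11.1) at 55.2 CPM. Rgs7 and Ano4 were higher still in γ-type nuclei, at 164 and 810 CPM, and Sgcz stood there at 4487 CPM.

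The largest deficits were in Robo2, a Slit receptor (4.85 against 151 CPM, a ratio of 0.0320), and Sfrp1, a secreted Wnt antagonist (14.6 against 407 CPM, 0.0357, 0.0266 to 0.0471). Car15 and Car12, both membrane-bound carbonic anhydrases, had ratios of 0.0496 and 0.0984. The cyclic nucleotide phosphodiesterase gene Pde10a was at 27.5 against 427 CPM, the plasma membrane calcium pump gene Atp2b4 at 3.77 against 57.8 CPM, and Atp4a, the catalytic subunit of the H,K-ATPase, at 5.39 against 66.4 CPM. Of the 54 Sfrp1 counts in the class, 40 came from the 261 nuclei of deposited cluster 1, and in the other 1376 nuclei Sfrp1 was at 4.51 CPM (2.47 to 7.57), against 4.44 CPM in the γ type. Without cluster 1, Car15 was at 9.67 in place of 16.2 CPM, Car12 at 4.83 in place of 9.16 CPM and Atp4a at 3.54 CPM, all still below the cortex type. Pde10a was at 11.9 CPM in γ-type nuclei.

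**Figure D3:**
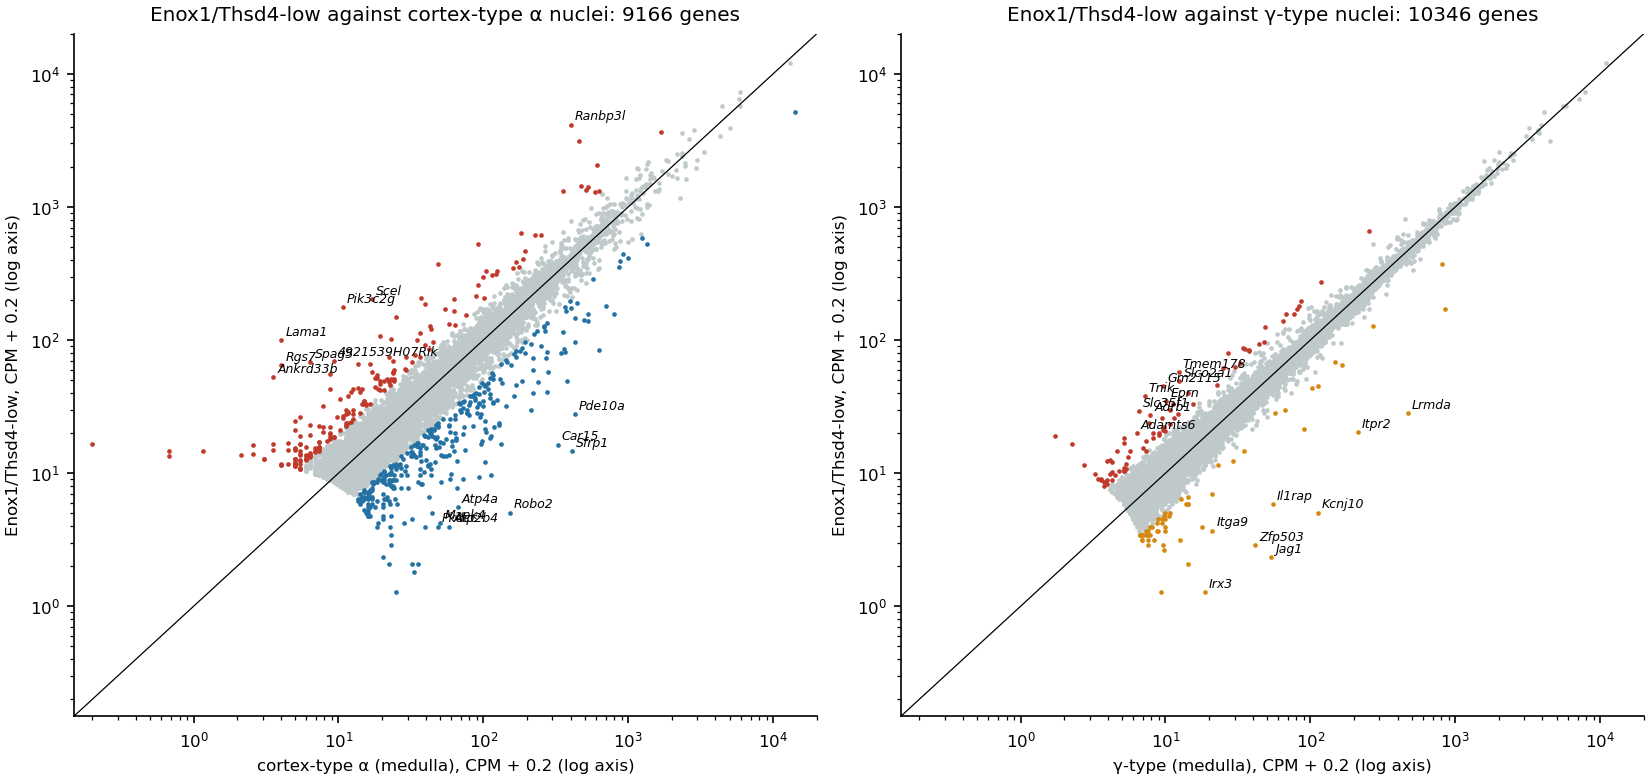
CPM of each gene in Enox1/Thsd4-low nuclei against cortex-type α nuclei (left, 9166 genes) and against γ-type nuclei (right, 10346 genes), on log axes after adding 0.2, with genes at least 2-fold apart in colour. The cloud on the left is wider than on the right, with 197 genes higher and 329 lower on the left and 76 higher and 64 lower on the right.

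Of 26 measured genes of NaCl transport, 2 were at least 2-fold higher and 2 lower than in the cortex type, against 2.15% and 3.59% of all genes compared, with a median log2 ratio of 0.16. The higher ones were Slc4a7, a sodium bicarbonate cotransporter (120 against 43.5 CPM, 2.77-fold, 2.21 to 3.51), and Cab39l, a scaffold of the kinases that activate NKCC2 (316 against 121 CPM, 2.60-fold, 2.27 to 2.99). Slc9a3, the NHE3 exchanger of the luminal membrane, was 1.61-fold higher (1.496 to 1.72) at 806 CPM, whereas Slc9a2 (NHE2) was at 23.7 against 128 CPM. The γ type had Slc4a7 at 138 and Slc9a2 at 16.4 CPM.

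Among 8 measured potassium channel genes 1 was higher and 2 were lower, against 2.15% and 3.59% of all genes compared. The median log2 ratio was -0.42. Kcnt1, a sodium-activated K+ channel, was at 185 against 39.6 CPM, 4.67-fold (3.72 to 5.94), and at 195 CPM in the γ type. Kcnma1 (BK) was at 176 against 368 CPM, and Kcnd3 at 4.04 against 18.6 CPM. Kcnj1, encoding ROMK, was at 760 against 655 CPM, a ratio of 1.16 (1.09 to 1.24), and Kcnj16 (Kir5.1) at 822 against 1153 CPM.

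Of 16 measured Ca2+ and Mg2+ handling genes, 0 were at least 2-fold higher and 7 lower, against 2.15% and 3.59% of all genes compared. The median log2 ratio was -0.57, and the whole list summed to 6068 against 6449 CPM. The calcium-sensing receptor gene Casr was at 352 against 868 CPM, a ratio of 0.406 (0.377 to 0.436). The parathyroid hormone receptor gene Pth1r was at 22.9 against 127 CPM (0.180, 0.140 to 0.231), or 12.6 CPM without deposited cluster 1, and the vitamin D receptor gene Vdr at 51.5 against 111 CPM. Klotho (Kl), the FGF23 coreceptor, was at 116 against 354 CPM. Cldn16, the claudin of divalent cation passage, was at 24.5 against 103 CPM (0.238, 0.184 to 0.305), while its partner Cldn19 was at 102 against 137 CPM (0.746, 0.638 to 0.873). Over all 15 measured claudin and junction genes, 0 were higher and 2 lower, beside the same shares of all genes. The lower ones were Cldn16 and the junction scaffold gene Tjp3. The voltage-gated calcium channel subunit gene Cacnb4 went the other way, at 3565 against 2356 CPM. The γ type had Casr at 382, Pth1r at 15.0, Cldn16 at 42.3 and Cacnb4 at 3772 CPM.

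The 2 secreted products most typical of the TAL were unequal. Egf, the epidermal growth factor precursor, was at 5141 against 14184 CPM, a ratio of 0.362 (0.356 to 0.369), and Umod, encoding uromodulin, at 3923 against 5041 CPM, 0.778 (0.759 to 0.798). Egf was lower still in the γ type, at 4089 CPM. Of 16 measured TAL identity genes, 2 were at least 2-fold lower, Egf among them, and 0 were higher. Of all genes compared, 3.59% were lower and 2.15% higher.

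In the list for osmolytes and tonicity, 4 of 9 measured genes were at least 2-fold higher and 0 lower. The median log2 ratio was 0.40, and of all genes compared 2.15% were higher and 3.59% lower. Among nuclei of 2000 to 3000 counts 3 of 8 were higher (median 0.21), and after thinning to 1000 counts 2 of 7 (median 0.09). With all ratios divided by their median 3 of 9 were higher (median 0.39). Slc5a3 was at 3641 against 1691 CPM, 2.15-fold (2.07 to 2.23). It starts at the same annotated base as Mrps6 on chromosome 16 (91854965, GRCm39), so reads may have been divided between the 2 genes, and Mrps6 itself was 2.62-fold higher (2.45 to 2.80). Slc38a2, an amino acid transporter induced by hypertonicity, was at 331 against 104 CPM, 3.18-fold (2.75 to 3.69). Akr1b3, the aldose reductase that makes sorbitol, was at 24.0 against 11.9 CPM, 2.01-fold (1.28 to 3.27), and the small heat shock protein gene Cryab at 12.7 against 4.78 CPM, 2.65-fold (1.32 to 5.89). Nfat5 itself was at 701 against 711 CPM, a ratio of 0.985 (0.924 to 1.05). In γ-type nuclei Slc5a3 was at 3705, Slc38a2 at 358, Akr1b3 at 20.6, Cryab at 10.9 and Nfat5 at 735 CPM, and 0 of 11 measured osmolyte genes were 2-fold apart from them in either direction, where 0.735% of all genes were higher and 0.619% lower, so a count of 0 is no result about this list.

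Among transcription factors of nephron segments, 5 of 20 were higher and 1 lower, where 2.15% of all genes compared were higher and 3.59% lower. Pax2, a kidney developmental regulator, was at 1440 against 471 CPM, 3.06-fold (2.86 to 3.28), and Prox1, known from lymphatic and medullary tubule cells, at 170 against 54.0 CPM, 3.15-fold (2.57 to 3.88). Tfcp2l1, a regulator of distal nephron cells, was at 416 against 989 CPM. The γ type had Pax2 at 1521, Prox1 at 252 and Tfcp2l1 at 301 CPM. Of 21 measured Hox genes 2 were lower and 0 higher, beside 3.59% and 2.15% of all genes compared. Hoxd9 was lowest, at 16.2 against 45.8 CPM. Of 20 laminin and basement membrane genes Lama1 alone was higher and 4 were lower, beside the same shares of all genes. The lower ones included Lamb1 (285 against 573 CPM) and Col4a1 (15.9 against 60.2 CPM). The collagen Col4a3 was at 1266 against 1053 CPM.

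The lists of energy metabolism and stress gave counts near those of all genes compared (2.15% higher and 3.59% lower), which are given as values only. For hypoxia response 1 of 12 was higher (Mxi1, a Myc antagonist, 74.4 against 29.1 CPM) and 0 lower. Under several of the 12 alternatives 1 gene of this list was lower. Vegfa was at 245 against 181 CPM. For glycolysis 0 of 14 passed 2-fold in either direction. Of 15 mitochondrial regulators 1 was higher, Pdk4, a kinase that inhibits pyruvate dehydrogenase, on 42 and 8 counts, and under 8 of 12 alternatives 0 were, mostly because Pdk4 came under the minimum of 50 counts. The coactivator gene Ppargc1a was at 1952 against 1158 CPM, 1.69-fold (1.61 to 1.77). Of 6 measured immediate early and stress genes, out of 17 listed, 0 passed. Their median log2 ratio was 0.45, against 0.01 over all genes compared. Dusp1, named above among the genes higher than in the cortex type, was not in this list. Of 15 receptor genes Htr1b was higher, on 49 and 1 counts, and 3 were lower, and under 5 of 12 alternatives 0 were higher.

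The lists of TAL-α, TAL-β, TAL-γ and macula densa markers, and of genes that scored nuclei as medullary or cortical, came from the study itself, which chose them on these libraries. They are no independent evidence. Against the cortex type, 2.15% of all genes compared were higher and 3.59% lower. There, 10 of 13 measured medullary score genes were higher and 0 lower, and 11 of 11 cortical score genes were lower. Of 8 measured TAL-γ markers 4 were higher and 0 lower, of 9 TAL-β markers 0 were higher and 5 lower, and of 8 TAL-α markers 0 were higher and 1 (Kcnma1) was lower. All 5 measured macula densa markers were lower, while 3 of the 8 in that list, including Ptgs2 with 0 counts, were under the minimum. Robo2, with 18 counts against 317, passed the minimum of 50 only through the cortex type, and Unc5d had 23 against 33. A lower level was thus partly set by the minimum. Among nuclei of 2000 to 3000 counts, and after thinning to 1000 counts, only 2 of the list were measured, both lower.

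The cortex library offered nuclei that the selection of the class had not used. There, 92 nuclei met the same limits (1.69% of 5442, median 1926 counts), and 1353 cortex-type α nuclei (median 2401 counts) served as the comparison. The share in the medulla library was 20.2%. The repeat was chosen after the data had been seen, and it again splits nuclei by Enox1 and Thsd4, in a different library. Of 8020 genes compared there, 305 were at least 2-fold higher (3.8%) and 719 lower (8.97%), in a much smaller class than in the medulla. Of the 197 genes higher in the medulla 85 could be measured, 74 went in the same direction and 26 passed 2-fold, with a median log2 ratio of 0.66 against 1.27 for all 197 in the medulla. Of the 329 lower genes 312 could be measured, 274 went in the same direction and 132 passed 2-fold, with a median of -0.82 against -1.44.

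Ranbp3l was at 1596 CPM in these 92 nuclei against 185 CPM, 8.65-fold (7.49 to 9.96). Kcnt1 was at 171 against 17.2 CPM, 9.96-fold (6.22 to 15.7), Slc38a2 2.45-fold (1.62 to 3.601) and Slc5a3 1.75-fold higher (1.56 to 1.96). Sfrp1 was at 66.3 against 685 CPM, a ratio of 0.0967 (0.0499 to 0.169). Scel had 9 counts and Lama1 3, with ratios of 15.0 (5.49 to 39.8) and 6.87 (1.17 to 28.6). Slc6a12 and Htr1b had 0 counts, and at 181072 counts in all their absence could not be told from the low level seen in the medulla. Other differences were small or turned over. Casr was at 884 against 898 CPM, a ratio of 0.984 (0.834 to 1.15), Egf had a ratio of 0.823 (0.787 to 0.860), and Umod was 1.21-fold higher (1.14 to 1.29), where in the medulla it was lower.

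The comparison with γ-type nuclei was set by the limit on Tmem207 and Gpc5 and is likewise a description. Of 10346 genes compared, 76 were at least 2-fold higher (0.735%) and 64 lower (0.619%), and the median log2 ratio was -0.00. The lower genes were led by Jag1, a Notch ligand (2.16 against 53.2 CPM, a ratio of 0.0405, 0.0173 to 0.0808), and Kcnj10, the basolateral K+ channel Kir4.1 (18 counts, 4.85 against 112 CPM, 0.0431, 0.0254 to 0.0687). The homeobox gene Irx3 was at 1.08 against 18.4 CPM, Lrmda at 28.0 against 469 CPM, the inositol trisphosphate receptor gene Itpr2 at 20.2 against 212 CPM, and the splicing factor gene Rbfox1 at 171 against 854 CPM. In cortex-type α nuclei Kcnj10 was at 2.39 CPM.

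The genes higher than in the γ type included Tnik, a Wnt pathway kinase (37.5 against 6.997 CPM, 5.35-fold, 3.75 to 7.78), and Slco2a1, the prostaglandin transporter (49.3 against 12.3 CPM, 4.01-fold, 3.04 to 5.35), which at 379 CPM was higher still in the cortex type. Of the 183 counts of Slco2a1 in the class, 114 came from the 261 nuclei of deposited cluster 1 (188 CPM), and in the rest of the class it was at 22.2 CPM, 1.81-fold the γ type (1.28 to 2.55). Adrb1, the β1 adrenergic receptor, was at 27.2 against 7.68 CPM, 3.54-fold (2.47 to 5.15). Cacnb2, a calcium channel subunit, was 2.58-fold higher (2.42 to 2.75), Hes1, a Notch target, 2.31-fold (2.09 to 2.55), and the homeobox genes Irx1 and Irx2 2.52-fold (2.04 to 3.13) and 2.09-fold (1.72 to 2.54). Of 9 measured TAL-γ markers 5 were lower and 0 higher, of 8 TAL-α markers 2 were higher, and 0 of 13 medullary score genes differed 2-fold. Of 11 measured cortical score genes 8 were at least 2-fold higher than in the γ type, with a median log2 ratio of 1.17, and against the Gpc5-only nuclei described next 6 of 11 were, with a median of 1.04. The count of 76 higher genes was 39 without deposited cluster 1 and 41 with the class limited to nuclei with 0 counts of Enox1 and Thsd4.

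The γ-type class was itself mixed. Tmem207 was counted in 66.5% of its nuclei and also in 57.9% of β-type nuclei, and Gpc5 in 88.8% and 23.1%. The class included 817 nuclei with at least 3 counts of Gpc5 and none of Tmem207 (median 2341 counts), while 1289 nuclei had at least 3 counts of Tmem207 (median 2420 counts). These groups were formed after the data had been seen. Kcnj10 was at 11.4 CPM in the Gpc5-only nuclei and at 167 CPM in the Tmem207 nuclei, and Jag1 at 8.29 and 78.5 CPM. Of 8969 genes compared between Enox1/Thsd4-low and Gpc5-only nuclei, 81 were at least 2-fold higher (0.903%) and 13 lower (0.145%). The higher ones included Ier3, an immediate early response gene (29.4 against 3.63 CPM, 8.10-fold, 3.80 to 20.6), Rtl4 (95.7 against 20.2 CPM), the cadherin gene Cdh6 (84.9 against 24.3 CPM) and Slco2a1 (2.88-fold). Within the class these too were concentrated in deposited cluster 1, with Ier3 at 107 CPM there against 14.2 CPM in the other nuclei, Rtl4 at 318 against 52.2 CPM and Cdh6 at 250.3 against 52.5 CPM. The lower ones included Slit3, a Robo ligand (68.2 against 204 CPM, 0.335, 0.285 to 0.393) and Rgs7 (64.9 against 131 CPM). Kcnj10 was under the minimum of 50 counts over both classes, with a ratio of 0.426 (0.215 to 0.831). Egf was 1.67-fold (1.62 to 1.72) and Casr 1.72-fold higher (1.53 to 1.92) than in the Gpc5-only nuclei, Cacnb2 was 1.21-fold higher (1.12 to 1.30), and Irx1 was at 62.0 against 58.0 CPM. A nucleus with 0 counts of Gpc5 may come from a cell that transcribes it, and at a median of 2292 counts such nuclei could not be told apart.

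Within the class, levels were graded with the few Enox1 and Thsd4 counts that the limit allowed. Of the 1637 nuclei, 1222 had 0 counts of both genes, 236 had 1 and 179 had 2. Ranbp3l was at 4719 CPM in the first of these groups, 3029 CPM in the next and 2058 CPM (1925 to 2198) in the last. Just outside the limit, 143 nuclei with 3 counts were at 984 CPM (882 to 1094), and 528 nuclei with 8 or more at 223 CPM. Egf ran the other way, from 4010 CPM at 0 counts to 9039 CPM at 2 counts just inside the limit, 11766 CPM at 3 counts just outside it and 14848 CPM at 8 or more. Casr was at 244 CPM at 0 counts, 683 CPM at 2 and 952 CPM at 3. It did not rise beyond that, with 825 CPM at 4 counts and 876 CPM at 8 or more. Sfrp1 was at 7.0, 48.6 and 63.5 CPM at 0, 2 and 3 counts, and at 527 CPM at 8 or more.

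Lama1 was concentrated in nuclei with 0 counts of both rule genes, at 128 CPM (115 to 142), and was at 30.9 CPM with 1 count and 6.9 CPM, from 3 counts, with 2. Scel was at 246, 113 and 50.9 CPM in the same order, and at 37.5 CPM (19.97 to 64.1) at 3 counts, which overlaps the interval of 31.9 to 77.1 at 2. Slc5a3 changed less, from 3877 CPM at 0 to 2840 CPM at 2, 2328 CPM at 3 and 1484 CPM at 8 or more, and Cldn10 stayed between 220 and 262 CPM over all 7 groups. Across the limit, from 2 to 3 counts, Ranbp3l went from 2058 to 984 CPM, in a series from 4719 to 223 CPM. Egf went from 9039 to 11766 CPM over the same step, in a series from 4010 to 14848 CPM. The Enox1/Thsd4-low nuclei had fewer counts than the cortex type (median 2292 against 2661.5). Among nuclei of 2000 to 3000 counts alone, 161 of 7933 genes were at least 2-fold higher (2.03%) and 270 lower (3.40%) than in the cortex type. With all nuclei of the 2 classes the shares were 2.15% and 3.59% of 9166 genes.

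**Figure D4:**
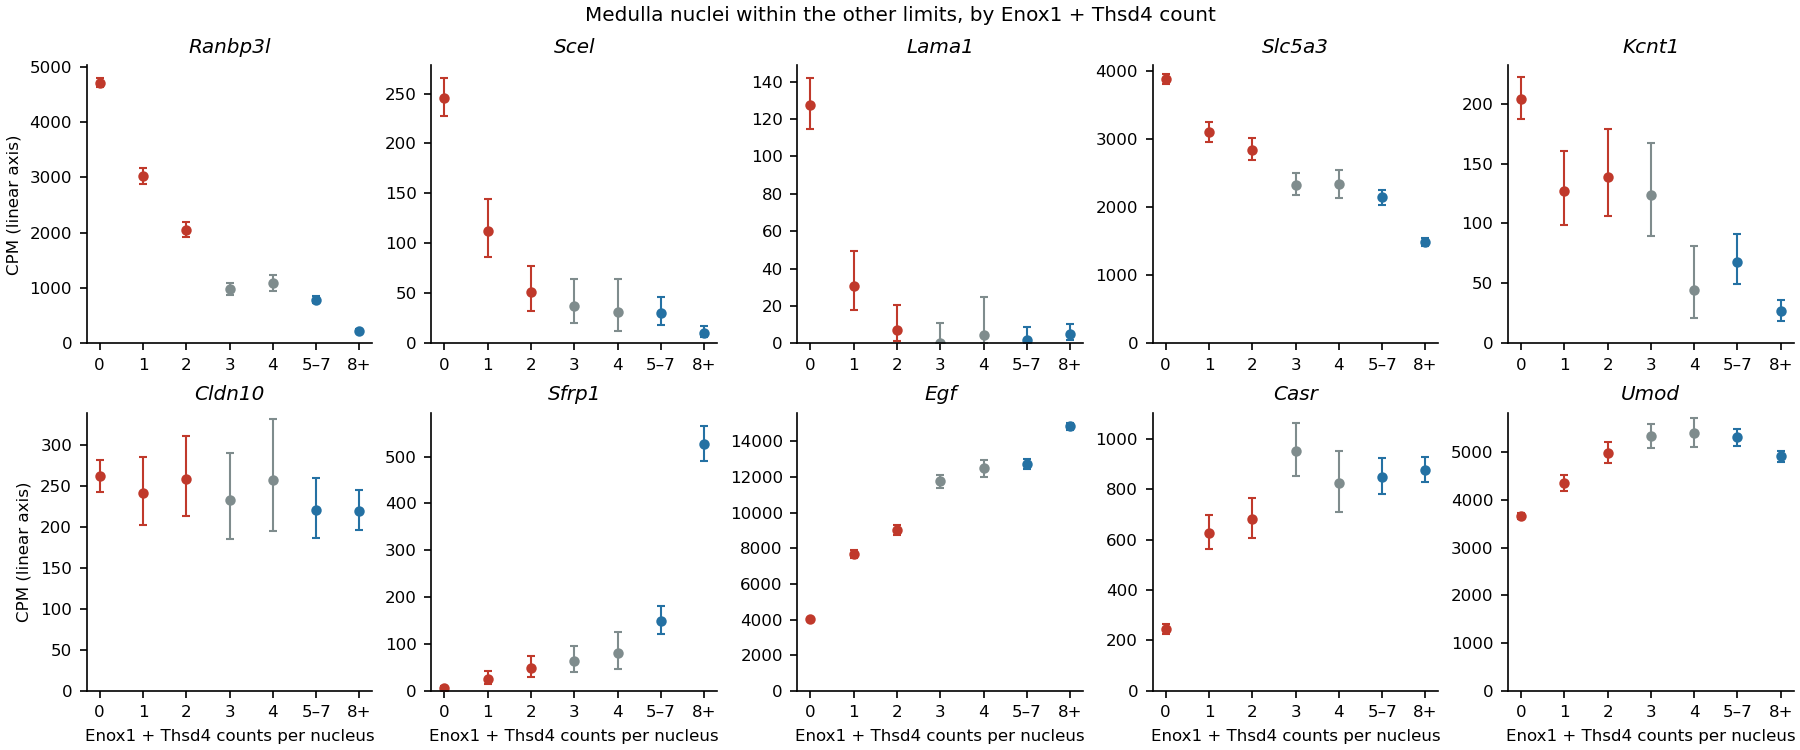
CPM of 10 genes (linear axes, exact Poisson 95% intervals) in medulla nuclei that met all other limits, grouped by their sum of Enox1 and Thsd4 counts, with the class in red (0 to 2), nuclei between the limits in grey and cortex-type α nuclei in blue. Ranbp3l, Scel and Lama1 are lower and Egf, Casr and Sfrp1 higher in nuclei with 8 or more counts than in nuclei with 0, and Cldn10 stays between 220 and 262 CPM.

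The authors' deposited clusters divided the class further. Of 13 clusters, cluster 3 held 567 of the Enox1/Thsd4-low nuclei (34.6%), cluster 4 held 472 (28.8%), cluster 1 held 261 (15.9%), cluster 2 held 172 (10.5%) and cluster 8 held 108 (6.60%). The clusters were made from the same counts, so their genes are given as a description. Cluster 4 carried most of the rarer markers. Lama1 was at 264 CPM (234 to 297) there, against 40.0 CPM (30.1 to 52.0) in cluster 3, 36.0 CPM in cluster 2 and 3.3 CPM in cluster 1. Of the 31 Slc6a12 counts of the class, 28 were in cluster 4 (26.0 CPM, 17.3 to 37.6), and of the 49 Htr1b counts 28 were there. Pik3c2g was at 357 CPM, Ranbp3l at 6891 CPM, Slc5a3 at 4363 CPM and Akr1b3 at 45.6 CPM in cluster 4, each the highest of clusters 1 to 4. Egf (2538 CPM), Casr (83.7 CPM, 67.3 to 103) and Umod (2792 CPM) were low there.

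Cluster 3 kept Ranbp3l at 4077 CPM but had little Rgs7, at 9.4 CPM against 159 CPM in cluster 4, and more Slc4a11, a solute carrier listed here with the thin limb genes, at 69.0 CPM against 30.8 CPM in the rest of the class. Its Egf (5110 CPM) and Casr (357 CPM, 326 to 390) lay between those of clusters 4 and 1. Cluster 2, which also held 779 of the 2437 γ-type nuclei (32.0%) and 344 of the 817 Gpc5-only nuclei (42.1%), had Scel at 301 CPM and Rgs7 at 87.5 CPM but Ranbp3l at only 1940 CPM and 0 counts of Slc6a12.

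Cluster 1 stood apart from the rest of the class in many of these genes. It held 733 of the 790 cortex-type α nuclei (92.8%). Its 261 Enox1/Thsd4-low nuclei had Ranbp3l at 1054 CPM, Scel at 24.7 CPM, Lama1 at 3.3 CPM from 2 counts, Egf at 11330 CPM and Casr at 868 CPM. Other genes did not follow the cortex type, with Kcnt1 at 133 CPM (39.6 CPM in the cortex type, 174 to 220 CPM in the other 4 clusters), Prox1 at 128 CPM (54.0 CPM in the cortex type) and Slc5a3 at 2509 CPM (1691 CPM in the cortex type, 3216 CPM in cluster 2). The same 261 nuclei held Enox1 at 183 CPM and Thsd4 at 262 CPM. Kcnj1 ranged less, from 673 CPM in cluster 1 to 815 CPM in cluster 3 of the 5. Cluster 8 was the shallowest, with a median of 1245 counts per nucleus, with Ranbp3l at 4909 CPM, between clusters 3 and 4, and Scel at 283 CPM (201 to 387), near the 301 CPM of cluster 2. Without the nuclei of cluster 1, which is an alternative chosen after the data had been seen, 1376 nuclei remained. The number of genes at least 2-fold higher than in the γ type was then 39 of 10175 (0.383%).

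**Figure D5:**
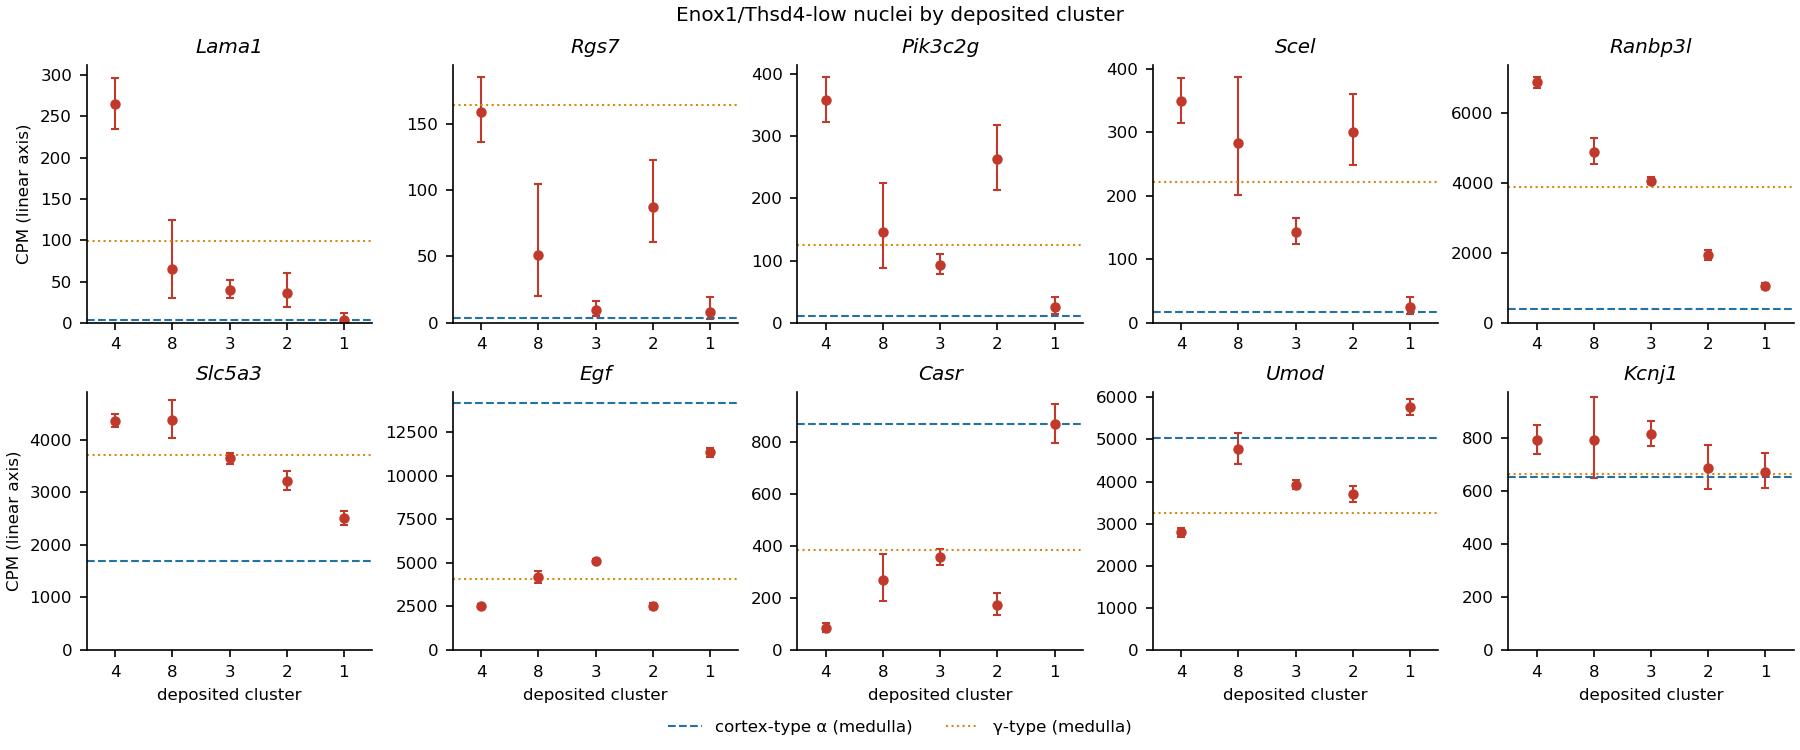
CPM of 10 genes in the Enox1/Thsd4-low nuclei of 5 deposited clusters (linear axes, exact Poisson 95% intervals), with the levels of all cortex-type α (dashed) and γ-type nuclei (dotted) as lines. Lama1, Rgs7, Pik3c2g and Ranbp3l are highest in cluster 4 and Egf and Casr in cluster 1, and Kcnj1 runs from 673 to 815 CPM.

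Proximal tubule genes summed to 351 CPM in Enox1/Thsd4-low nuclei and 426 CPM in cortex-type α nuclei, with Kap the most abundant at 236 and 257 CPM and the defining genes Lrp2 and Cubn held down by the rule. Barcodes outside the called nuclei held 2886 CPM of this list. The 14 thin limb genes summed to 95.1 against 81.2 CPM. Slc4a11 led at 45.0 CPM, Aqp1 was at 6.20 against 8.60 CPM, and 3 genes (Bst1, Fst and S100a4) were at 0. Akr1b3, which is in this list as well as in that of the osmolyte genes, was the only one of its 2 measured genes to pass 2-fold. Distal convoluted tubule genes summed to 4142 against 3443 CPM, nearly all of it Abca13, and principal cell genes to 472 against 1055 CPM, most of it Tfcp2l1.

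The immune list summed to 29.6 against 11.5 CPM, and 1 measured gene passed 2-fold, Csf1r, the receptor of macrophages, at 21.02 against 4.78 CPM (4.402-fold, 2.27 to 9.54). In the γ type the list summed to 26.8 CPM and Csf1r was at 17.6 CPM. The leukocyte gene Ptprc had 5 counts and C1qa and C1qb 1 each, below their levels in the cortex type, and Cd74 was at 3.50 against 1.91 CPM. Endothelial genes summed to 36.4 against 49.2 CPM, stromal genes to 9.97 against 9.55 CPM, intercalated cell genes to 8.35 against 11.5 CPM and podocyte genes to 6.47 against 4.78 CPM. The part of these transcripts in the differences given above was not tested. The median mitochondrial share was 0.0432% of counts per nucleus in Enox1/Thsd4-low and 0.0379% in cortex-type α nuclei.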

How the data were processed

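Single-nucleus libraries of dissected kidney cortex and medulla (1 each) were prepared by the authors with PIPseq, aligned to GRCm39 and counted with PIPseeker 3.3.0. The submitters' processing notes also name bcl2fastq and Seurat 4.4.0. The authors deposited unnormalized counts of transcripts for each gene in each barcode, both for all barcodes and for called nuclei, made before doublet removal and ambient RNA correction. The authors also deposited cluster numbers and UMAP coordinates (a score with no unit). The order of the coordinates was taken to be that of the filtered barcodes: 93.1% of nuclei had a nearest UMAP neighbour in their own cluster, against 12.5% for random pairs.

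Counts were summed by class and divided by the class total in Python 3.11.15 (numpy 2.4.6, scipy 1.17.1, pandas 2.3.3). No test was made, since there was 1 library per region. A gene was called higher at a ratio of 2 or more and lower at 0.5 or less, among genes with at least 50 counts in both classes together. For ratios, a count of 0 was set to 3. Doublets were left in, with their removal as an alternative: Scrublet (scanpy 1.11.5) called 2 medulla nuclei (0.0246%), so in that alternative the 406 top-scoring ones were taken out. Shares were also given after thinning to 1000 counts, with 11 shallower Enox1/Thsd4-low nuclei left out. Proximal tubule nuclei with at least 10 counts of Lrp2 and Cubn and at most 2 of Slc12a1, and barcodes not called as nuclei, gave the background. Gene positions are from the GENCODE M39 annotation of GRCm39, and promoter sequences and start sites from RefSeq on GRCm38.p6.

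The class, the 7 markers and the 29 gene lists were chosen with earlier results of these data known. Named genes were the markers, the rule's genes, the most abundant and most different genes of each list, and the 15 genes with the highest and 15 with the lowest ratio to the cortex type and 10 and 10 to the γ type among those with at least 100 counts. Some genes are not reported here. Other genes, and those named by cluster, were chosen after their values were seen.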

Additional observations from a re-analysis of the deposited data

How the results depend on the processing

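Of the main counts of genes at least 2-fold apart, 197 were higher and 329 lower than in the cortex type and 76 higher and 64 lower than in the γ type. With nuclei thinned to 1000 counts, 218 of 6609 genes were lower than in the cortex type (3.299%, against 3.59% of 9166) and 36 of 8025 lower than in the γ type (0.449%, against 0.619% of 10346). With a minimum of 200 counts per gene the 4 counts were 82 (1.67%) and 136 (2.76%) of 4922 genes and 25 (0.387%) and 18 (0.279%) of 6463. With no minimum they were 1119 and 4164 of 21781 genes and 3527 and 993 of 23049. Because a count of 0 was set to 3 in every ratio, a gene with 1 count against 0 can then be called in the wrong direction. The 4 counts without a minimum are therefore not read as results. Limiting the class to nuclei with 0 counts of Enox1 and Thsd4 left 41 of 9843 genes (0.417%) higher than in the γ type. Leaving out deposited cluster 1 (chosen after the data had been seen) left 39 of 10175 (0.383%). The main share was 0.735% of 10346. The number of nuclei in the class ranged from 1222 (0 counts of Enox1 and Thsd4) to 1641 (no upper limit on total counts). Of 76 genes followed through 12 alternatives in the comparison with the cortex type, 0 changed direction, and of the 54 that were 2-fold apart, Unc5d and Pdk4 alone came under 2-fold in any of them. Akr1b3, which was not among those followed, came under 2-fold when ratios were divided by their median. Subtracting the profile of barcodes outside the called nuclei, as 10% of all counts, changed the 4 main counts. Against the cortex type they were 252 (2.90%) and 379 (4.36%) of 8696 genes, and against the γ type 92 (0.932%) and 78 (0.790%) of 9874. No paired analysis was possible because each region had 1 library, and for the same reason no replicate could be left out. Slc6a12 and Htr1b rest on 31 and 49 counts in the class, and Kcnj10 and Robo2 on 18 each.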
